A study of Mus musculus with 19 samples.

Results

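The P2X receptors are the family of ion channels that open when ATP outside the cell binds to them. All 7 genes of the family, P2rx1 to P2rx7, were taken by gene name from the 36682 genes of the deposited table, and all 7 passed the filter on low counts together with 22778 genes in all. They were followed by bulk RNA sequencing in the dorsal root ganglia of mice, which lie along the spinal cord and hold the cell bodies of sensory neurons. Neuronal P2rx3 was set against P2rx1, P2rx4 and P2rx7, which were grouped here as the myeloid members, although P2rx1 is also known from platelets and smooth muscle.

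Every library came from male mice homozygous for MaFIA (macrophage Fas-induced apoptosis), a transgene under the Csf1r promoter that lets the dimerizing drug AP20187 trigger death of macrophages and other cells that use this promoter. The vehicle groups carried the same transgene, so no comparison with mice lacking it was analysed here. There were 5 libraries of mice given AP20187 after DMM surgery, 5 of mice given vehicle after it, 4 of naive mice given AP20187 and 5 of naive mice given vehicle, where DMM is destabilization of the medial meniscus, a surgical model of knee osteoarthritis. Mice received AP20187 or vehicle by intraperitoneal injection daily for 5 days, in the DMM groups 8 weeks after surgery, while naive mice were matched for age, which is not given in the sources used here. Ganglia L3 to L5 of the operated side were pooled before RNA extraction. The labels number the samples but do not say that each number is a separate mouse, so the p-values measure the spread between these samples.

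P2X receptors are channels of 3 subunits that admit sodium and calcium when ATP binds. P2X3, alone or combined with P2X2, carries ATP signals in the nociceptors that detect tissue damage, chiefly the non-peptidergic type. P2X7 on macrophages opens at high ATP and leads to inflammasome activation and release of interleukin-1β, P2X4 serves macrophages and microglia, and P2X1 serves platelets, smooth muscle and granulocytes.

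Libraries held 60984830 to 74691396 counts. The DMM vehicle group was numbered 32 to 34, 63 and 64, and the labels do not say what the numbers mark. Samples 63 and 64 both lay outside the CPM range of samples 32 to 34 for P2rx1, P2rx3, P2rx5, P2rx6 and P2rx7. They were not alike throughout: sample 63 lay within that range for P2rx2 and had the highest pan-neuronal sum of the group (3194 FPKM), and sample 64 the lowest (1700 FPKM). Dixon's test marked no library as far from the rest of its group in the 40 groups of values checked. Summed FPKM of 8 genes of neutrophils and their precursors was 303 to 1626 in samples 32 to 34, 2085 in sample 63 and 6697 in sample 64. That sum was 618 to 1658 with vehicle in naive mice, 5271 to 19640 with AP20187 in naive mice and 12270 to 19580 with AP20187 in DMM mice. The log2 fold changes of the 7 P2X genes in DMM mice are therefore also given against samples 32 to 34 and against samples 63 and 64. This split follows values of the tested genes themselves, so adjusted p-values from it describe dependence on the samples and are not independent tests. Csf1r, whose promoter drives the transgene, differed between AP20187 and vehicle by a log2 fold change of -0.02 in DMM mice (SE 0.458, adjusted p = 0.982, edgeR) and 0.45 in naive mice (SE 0.484, adjusted p = 0.554). Summed FPKM of 4 skeletal muscle genes was 455 to 692 in the naive AP20187 libraries, against 4.14 to 160 with vehicle in naive mice. It was 647 in DMM vehicle sample 32, 5.01 to 96.7 in the other 4 DMM vehicle libraries and 6.37 to 44.9 with AP20187 in DMM mice.

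P2rx3 was the most abundant P2X transcript in 19 of 19 libraries. On the FPKM scale, which divides by transcript length and so allows genes to be compared, its level was 77.9 ± 9.9 (SD, n = 5) with vehicle in naive mice and 69.8 ± 30.4 (SD, n = 5) with vehicle in DMM mice. With AP20187 it was 28.2 ± 16.6 (SD, n = 4) in naive mice and 20.5 ± 11.1 (SD, n = 5) in DMM mice. P2rx3 made up 81.3% of the summed P2X FPKM with vehicle in naive mice, 76.9% with vehicle in DMM mice, 61.5% with AP20187 in naive mice and 55.8% with AP20187 in DMM mice.

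Below P2rx3, the order of the median levels with vehicle in naive mice was P2rx6 at 6.14 FPKM, P2rx4 at 4.15, P2rx5 at 3.34, P2rx7 at 2.81, P2rx2 at 1.76 and P2rx1 at 0.520. Neighbours from P2rx6 down to P2rx2 had overlapping ranges, whereas P2rx1 lay below P2rx2 without overlap. With vehicle in DMM mice P2rx7 stood above P2rx5 and below P2rx4 without overlap with the latter, and P2rx1 was again the lowest at 0.555 FPKM. With AP20187, P2rx1 was no longer last: its median was 3.34 FPKM in DMM mice, in the third place after P2rx4, and 2.30 FPKM in naive mice, in the fifth place. All neighbours below P2rx3 overlapped in both AP20187 groups.

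The members also differed in how far they varied over the 19 libraries. The ratio of the highest to the lowest CPM (counts scaled to library size after TMM normalization) was 40.1 for P2rx1, 30.6 for P2rx2, 13.9 for P2rx3, 12.6 for P2rx6 and 11.5 for P2rx5. It was 2.61 for P2rx7 and 1.48 for P2rx4. The plot of CPM by library shows these spreads.

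**Figure D1:**
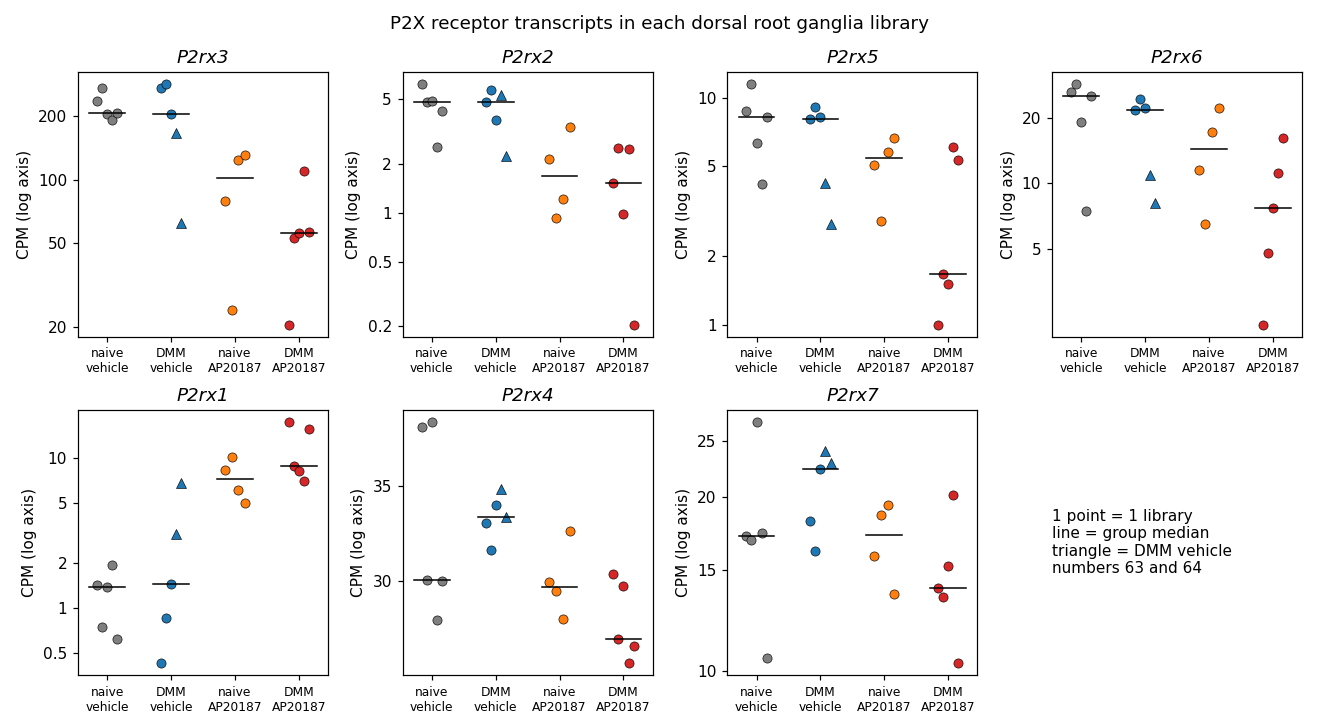
CPM of each P2X gene on a log axis, by group. Each point is 1 library, lines are group medians and triangles are DMM vehicle samples 63 and 64. P2rx1 is higher in every AP20187 library of a DMM or naive group than in the vehicle libraries of that group, P2rx3 runs lower with AP20187, and P2rx4 spans only a 1.48-fold range.

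The bases before the start of the genes with the widest and the narrowest range are shown because they head these unlike patterns. Both are RefSeq promoters of GRCm38.p6, 250 bases on the plus strand, with each CG dinucleotide in capitals, which reads the same on the other strand.
P2rx1, chr11:72998895-72999144: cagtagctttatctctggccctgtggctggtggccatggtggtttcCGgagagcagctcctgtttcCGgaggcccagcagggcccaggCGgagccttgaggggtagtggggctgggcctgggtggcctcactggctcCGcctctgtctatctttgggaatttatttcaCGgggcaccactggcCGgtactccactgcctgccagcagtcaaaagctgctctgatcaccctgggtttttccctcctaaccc
P2rx4, chr5:122707294-122707543: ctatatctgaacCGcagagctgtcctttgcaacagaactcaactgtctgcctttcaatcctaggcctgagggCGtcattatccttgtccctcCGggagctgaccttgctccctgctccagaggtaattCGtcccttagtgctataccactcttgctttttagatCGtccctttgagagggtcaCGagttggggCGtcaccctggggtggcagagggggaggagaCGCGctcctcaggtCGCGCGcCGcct
The P2rx1 window held 6 CG, which is the median of the 32851 windows of this length, of which 92.1% held at least 1. The P2rx4 window held 13, and 31.5% of the windows held as many or more. Of the other members, P2rx6 had 1 entry with 3 CG, and P2rx7 had 2 entries with 6 and 4.

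With AP20187 in DMM mice, 3 of the 7 P2X genes passed an adjusted p of 0.05 in edgeR's quasi-likelihood test: P2rx3 and P2rx2 were lower and P2rx1 was higher. Across all 22778 genes tested, 23.8% passed in this comparison, 11.3% as higher and 12.4% as lower. The median log2 fold change was -1.05 over the 7 members and -0.10 over all genes. In naive mice only P2rx1 passed, as higher, where 11.2% of all genes passed and 8.61% did so as higher, and the medians were -0.57 over the members and -0.07 over all genes. Of the calls over all genes in naive mice 77% were higher with TMM normalization, 62.9% with scaling to library size only and 39.6% in limma on log2(FPKM + 1), and P2rx1 passed as higher in all 3 fits. The share of all genes that passed also moved with the fit, and counts from other fits below are read beside it. In DMM mice it was 46.9% in limma voom (21.9% higher, 25% lower), 36.3% against vehicle samples 32 to 34 (17.5% higher, 18.8% lower) and 4.73% against samples 63 and 64 (2.71% higher, 2.02% lower). In naive mice 19.9% passed in limma voom (13.7% higher, 6.23% lower), 19.1% in DESeq2, 19.3% in limma on log2(FPKM + 1) and 11.1% with the replicate block.

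P2rx3 encodes the ATP receptor subunit typical of non-peptidergic nociceptors. It lies on chromosome 2 at 84828927 to 84867806 (GRCm39, minus strand) and overlaps Ssrp1 on the other strand, which had 4437 to 9823 counts per library. With vehicle in naive mice it was at 235, 273, 206, 192 and 208 CPM. With vehicle in DMM mice it was at 273, 285 and 205 CPM in samples 32 to 34, at 166 in sample 63 and at 62.4 in sample 64. With AP20187 it was at 79.3, 24.0, 124 and 132 CPM in the 4 naive libraries and at 20.5, 52.9, 56.1, 110 and 56.6 CPM in the 5 DMM libraries.

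Every naive AP20187 library was thus below every naive vehicle library, as in 6.15% of all genes. In DMM mice 4 of 5 AP20187 libraries were below all vehicle libraries, and the groups overlapped because vehicle sample 64 was low. P2rx3 fell 3.35-fold with AP20187 in DMM mice (log2 fold change -1.74, SE 0.449, adjusted p = 0.0110, edgeR). In bulk tissue fewer cells of a type and less RNA per cell cannot be told apart. In naive mice the log2 fold change was -1.31 (SE 0.478, 95% interval -2.32 to -0.31), which missed the threshold at an adjusted p of 0.0816 in edgeR but passed at 0.0250 in DESeq2, 0.0239 in limma on FPKM and 0.0149 in limma voom.

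The size of the P2rx3 difference in DMM mice depended on the vehicle samples used. Against samples 32 to 34 the log2 fold change was -2.10 (SE 0.441, adjusted p = 0.00243, edgeR), and against samples 63 and 64 it was -0.90 (SE 0.523, adjusted p = 0.363). Leaving out any 1 DMM library gave -2.09 to -1.52, with adjusted p of 0.0022 to 0.0307.

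P2rx2 encodes the subunit that joins P2X3 in heteromeric channels, and it lies on chromosome 5 at 110487678 to 110491015 (GRCm39, minus strand). With vehicle it was at 6.23, 4.81, 4.91, 2.53 and 4.26 CPM in naive mice and at 4.80, 5.72, 3.72, 5.33 and 2.25 CPM in DMM mice. With AP20187 it was at 2.14, 0.929, 1.21 and 3.40 CPM in naive mice and at 1.53, 2.50, 0.977, 2.47 and 0.204 CPM in DMM mice. Groups overlapped in both kinds of mice, and the lowest value, DMM AP20187 sample 62, rested on 12 counts. P2rx2 fell 2.83-fold with AP20187 in DMM mice (log2 fold change -1.50, SE 0.492, adjusted p = 0.0345, edgeR) and differed by -1.24 in naive mice (SE 0.526, adjusted p = 0.128), where it passed at 0.0234 in limma on FPKM and 0.0251 in limma voom. The call in DMM mice was lost without AP20187 sample 58 (adjusted p = 0.0711) or 60 (0.0794), or without vehicle sample 32 (0.0755), 33 (0.0780), 34 (0.0503) or 63 (0.0614), with log2 fold changes of -1.56 to -1.38 in these fits. Against vehicle samples 32 to 34 the value was -1.62 (SE 0.546, adjusted p = 0.0280), and against samples 63 and 64 the call was lost at -1.24 (SE 0.646, adjusted p = 0.307).

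P2rx5 and P2rx6 encode subunits that form weak channels on their own and join other P2X subunits. P2rx5 lies on chromosome 11 at 73051247 to 73063511 and P2rx6 on chromosome 16 at 17379749 to 17389875, both on the plus strand of GRCm39. With AP20187 in DMM mice P2rx5 was at 1.00, 1.67, 1.51, 6.10 and 5.33 CPM, against 8.06, 9.15, 8.26, 4.22 and 2.78 CPM with vehicle. P2rx6 was at 2.26, 4.83, 7.75, 11.2 and 16.1 CPM with AP20187, against 21.6, 24.3, 22.2, 11.0 and 8.15 CPM with vehicle. For both genes 3 of 5 AP20187 libraries were below all vehicle libraries, and vehicle samples 63 and 64 were the lowest of the vehicle group. Neither gene passed in DMM mice, with log2 fold changes of -1.06 for P2rx5 (SE 0.465, adjusted p = 0.105) and -1.05 for P2rx6 (SE 0.471, adjusted p = 0.110).

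Against vehicle samples 32 to 34, which leaves out the lowest vehicle libraries of both genes, both passed in edgeR. P2rx5 was at -1.44 (SE 0.486, adjusted p = 0.0281) and P2rx6 at -1.43 (SE 0.499, adjusted p = 0.0331). Against samples 63 and 64 the values were -0.16 and -0.17, with adjusted p of 0.931 and 0.924. With all 5 vehicle libraries both passed in limma voom, P2rx5 at -1.95 (adjusted p = 0.000285) and P2rx6 at -1.62 (adjusted p = 0.00152), and P2rx5 in limma on log2(FPKM + 1) at -0.75 (adjusted p = 0.0488). In edgeR P2rx5 also passed without AP20187 sample 61 (-1.45, adjusted p = 0.0304) or without vehicle sample 64 (-1.25, adjusted p = 0.045). In naive mice the differences were -0.62 for P2rx5 (SE 0.493, 95% interval -1.65 to 0.41) and -0.57 for P2rx6 (SE 0.499, 95% interval -1.62 to 0.47).

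P2rx1, the ATP receptor of platelets, smooth muscle and granulocytes, was the only member that passed as higher with AP20187. The gene lies on chromosome 11 at 72889929 to 72906026 (GRCm39, plus strand), 145220 bases before P2rx5. With vehicle it was at 1.43, 0.746, 1.37, 1.95 and 0.628 CPM in naive mice, and in DMM mice at 0.432, 0.866 and 1.44 CPM in samples 32 to 34, 3.11 in sample 63 and 6.80 in sample 64. With AP20187 it was at 8.27, 10.1, 6.12 and 5.01 CPM in naive mice and at 17.3, 8.86, 8.23, 7.01 and 15.6 CPM in DMM mice. The AP20187 and vehicle libraries did not overlap in either kind of mice, although vehicle sample 64 came close to the lowest AP20187 library. Over all genes, CPM ranges lay apart with AP20187 higher in 8.71% of genes in DMM mice and in 9.39% in naive mice.

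P2rx1 rose 4.50-fold with AP20187 in DMM mice (log2 fold change 2.17, SE 0.557, adjusted p = 0.0108, edgeR) and 6.01-fold in naive mice (2.59, SE 0.586, adjusted p = 0.00944). In naive mice it passed in all 8 alternative fits and without any 1 of the 9 libraries. In DMM mice the log2 fold change was 3.64 against vehicle samples 32 to 34 (SE 0.505, adjusted p = 0.000179) and 1.20 against samples 63 and 64 (SE 0.497, adjusted p = 0.184). Without vehicle sample 64 alone or any other single DMM library, it was 1.90 to 2.96 with adjusted p of 0.000531 to 0.0305.

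P2rx4 and P2rx7, which encode receptors of macrophages, lie next to each other on chromosome 5. P2rx7 runs from 122781974 to 122822360 and P2rx4 from 122845607 to 122867801 (GRCm39, plus strand), with 23246 bases between them. P2rx4 was at 26.3 to 30.3 CPM with AP20187 in DMM mice, with a median of 27.3, and at 31.5 to 34.8 CPM with vehicle, with a median of 33.3. These ranges did not overlap, as in 4.18% of all genes with AP20187 lower, but the difference was small: the log2 fold change was -0.24 (SE 0.114, 95% interval -0.48 to -0.01, adjusted p = 0.126, edgeR). It was -0.22 against vehicle samples 32 to 34 and -0.25 against samples 63 and 64. In naive mice P2rx4 was at 28.2 to 32.5 CPM with AP20187 and 28.1 to 38.8 CPM with vehicle, and its log2 fold change was -0.14 (SE 0.121, 95% interval -0.39 to 0.11, adjusted p = 0.448).

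P2rx7 was at 13.9, 13.5, 15.2, 20.2 and 10.3 CPM with AP20187 in DMM mice and at 18.2, 16.1, 22.4, 24.0 and 23.0 CPM with vehicle. In this comparison 4 of 5 AP20187 libraries were below all vehicle libraries, and AP20187 sample 61 lay among them. The log2 fold change was -0.50 (SE 0.217, 95% interval -0.96 to -0.05, adjusted p = 0.0974, edgeR), and of the fits without 1 library it passed only without AP20187 sample 61 (-0.65, adjusted p = 0.0372). It was -0.37 against vehicle samples 32 to 34 (adjusted p = 0.272) and -0.66 against samples 63 and 64 (adjusted p = 0.197). In naive mice P2rx7 was at 13.6 to 19.4 CPM with AP20187 and 10.5 to 27.0 CPM with vehicle. The log2 fold change there was -0.08 (SE 0.230, 95% interval -0.56 to 0.41, adjusted p = 0.847).

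**Figure D2:**
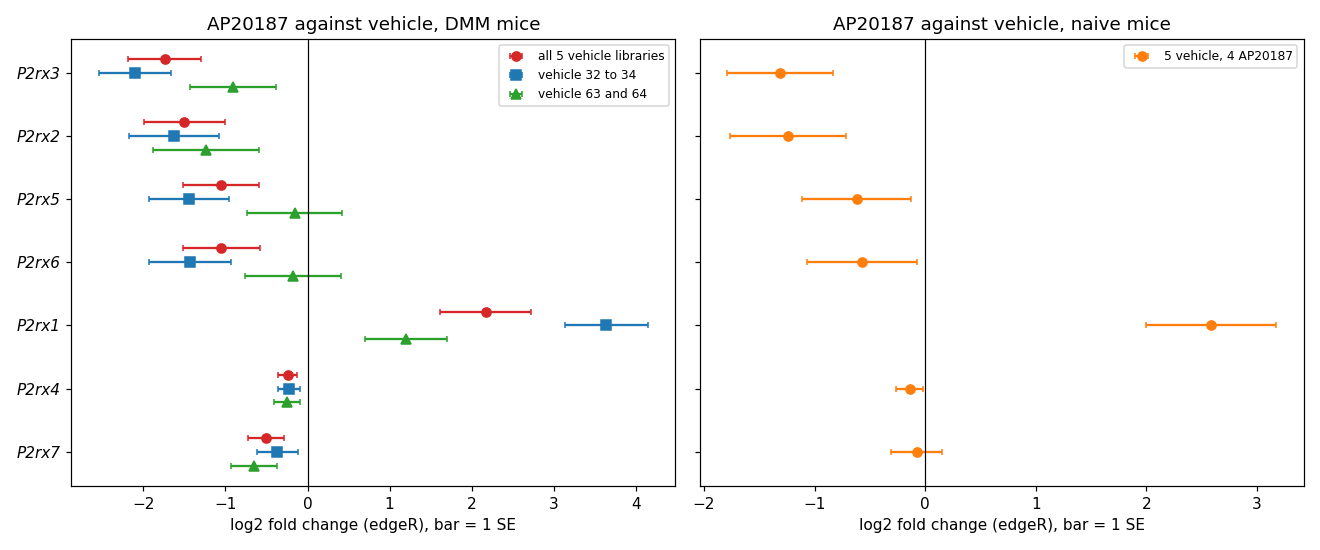
Log2 fold change of each P2X gene with AP20187 against vehicle, from edgeR, with bars of 1 SE. In DMM mice (left) circles use all 5 vehicle libraries, squares samples 32 to 34 and triangles samples 63 and 64, and P2rx1 moves from 3.64 to 1.20 between the last 2 while P2rx4 stays near -0.24. Naive mice are on the right, where P2rx1 is at 2.59 and P2rx3 at -1.31.

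Within a library, the ratio of P2rx1, P2rx4 or P2rx7 to P2rx3 does not depend on the scaling of the library. The mean log2 FPKM ratio of P2rx1 to P2rx3 was -7.55 with vehicle and -3.31 with AP20187 in naive mice, and -6.68 and -2.20 in DMM mice. The difference between AP20187 and vehicle was thus 4.24 in naive mice, without overlap, and 4.48 in DMM mice, where vehicle sample 64 at -3.11 lay within the AP20187 range. The highest ratio was -0.16, in DMM AP20187 sample 58, where both transcripts were nearly level.

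The ratio of P2rx4 to P2rx3 was higher with AP20187 by 1.44 on the log2 scale in naive mice, without overlap, and by 1.51 in DMM mice, with overlap. For P2rx7 to P2rx3 the differences were 1.54 in naive mice and 1.23 in DMM mice, with overlap in both. P2rx4 and P2rx7 themselves did not pass in either kind of mice. Against vehicle samples 63 and 64 alone, the differences in DMM mice were 2.19 for P2rx1, 0.69 for P2rx4 and 0.25 for P2rx7. The other members were not alike in their ratio to P2rx3. For P2rx5 and P2rx6 it was also higher with AP20187 in naive mice, by 0.96 and 1.0, both without overlap, and the differences in DMM mice were 0.46 and 0.53, with overlap. For P2rx2 the differences were 0.19 in naive mice and -0.12 in DMM mice. A higher ratio to P2rx3 was thus not limited to P2rx1, P2rx4 and P2rx7.

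**Figure D3:**
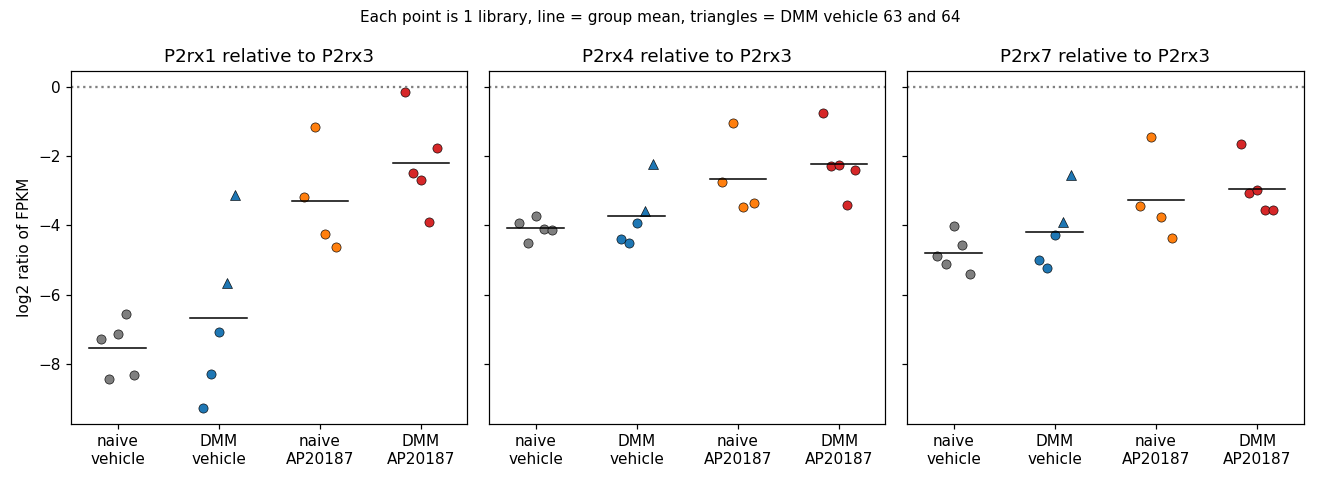
Log2 ratio of the FPKM of P2rx1, P2rx4 and P2rx7 to that of P2rx3 in each library. Lines are group means, triangles are DMM vehicle samples 63 and 64, and the dotted line marks equal levels. No library reaches equal levels, and the closest is DMM AP20187 sample 58 at -0.16 for P2rx1.

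DMM mice were also set against naive mice under the same injection. No group was labelled as sham-operated, and the sample numbers of DMM and naive mice differ, so this comparison does not isolate surgery. With vehicle, 0 of the 7 members passed in edgeR and 0 had an unadjusted p under 0.05. Over all genes 0% passed in edgeR, with 377 at an unadjusted p under 0.05, 0 genes passed in DESeq2 and 1 in limma voom. DESeq2 and both limma fits also called 0 of the 7 members. The largest difference was that of P2rx1, at 1.05 (SE 0.547, 95% interval -0.10 to 2.19, adjusted p = 1), and it reached 2.06 (adjusted p = 0.0485) with samples 63 and 64 alone and -0.43 (adjusted p = 1) with samples 32 to 34. Samples 63 and 64 had the highest P2rx1 values of the DMM vehicle group. P2rx3 differed by -0.17 (SE 0.436, 95% interval -1.08 to 0.75) and P2rx4 by 0.01 (SE 0.113, 95% interval -0.23 to 0.25).

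With AP20187, 0 of the 7 members passed between DMM and naive mice in edgeR, where 0.702% of all genes did, and 0 had an unadjusted p under 0.05. In limma voom 1 passed, P2rx5 at -1.45 (adjusted p = 0.0364), and in DESeq2 none did. The difference between the AP20187 effects in DMM and naive mice was tested as an interaction, in which 0.114% of all genes passed. None of the 7 members passed in edgeR, DESeq2 or limma, and none had an unadjusted p under 0.05 in edgeR. The interaction was -0.43 for P2rx3 (SE 0.636, 95% interval -1.76 to 0.90) and -0.42 for P2rx1 (SE 0.780, 95% interval -2.05 to 1.22), so the lower P2rx3 in DMM mice was not shown to differ from that in naive mice.

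Markers of several cell types moved beside the P2X genes. With AP20187 in DMM mice, 6 of 8 pan-neuronal genes passed as lower (median log2 fold change -1.21), and 6 of 8 genes of non-peptidergic nociceptors did (median -1.85). Of all genes 12.4% passed as lower there. Without 1 library the counts were 3 to 7 and 4 to 8, and against vehicle samples 63 and 64, 0 of 8 passed in either list. In naive mice 0 of 8 passed in either list in edgeR, with medians of -0.75 and -0.96. Pan-neuronal genes passed as lower there in DESeq2 (1 of 8), limma on FPKM (1) and limma voom (2), and genes of non-peptidergic nociceptors in both limma fits (3 of 8 each) and with the replicate block (7). Of 4 genes of peptidergic nociceptors 2 passed as lower in DMM mice (median -1.11) and 0 in naive mice (median -0.84). That count was 1 to 2 in DMM mice without 1 library and 0 against samples 63 and 64, and in naive mice it was 3 in both limma fits and 1 in DESeq2, in the 2-group fit and with the replicate block. Of 5 genes of large-fibre neurons 0 passed as lower in edgeR in either kind of mice, with medians of -0.85 in DMM mice and 0.52 in naive mice. Their count of lower genes in DMM mice was 2 in limma voom and against samples 32 to 34. It was above 0 in 5 of the 9 alternative fits and ran from 0 to 2 without 1 library. In naive mice 1 of the 5 passed as higher, Pvalb at 2.10 (adjusted p = 0.0027, edgeR), which fast skeletal muscle also expresses. The pan-neuronal sum was 618 to 1715 FPKM with AP20187 and 1700 to 3194 FPKM with vehicle in DMM mice, and 535 to 2306 against 1910 to 3518 FPKM in naive mice.

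Set against these sums, P2rx3 was 1.76% of the pan-neuronal FPKM with AP20187 and 2.51% with vehicle in DMM mice, and 1.81% and 2.93% in naive mice, with overlap in both. It was 20.6% of the non-peptidergic nociceptor FPKM with AP20187 and 21.1% with vehicle in DMM mice. In naive mice the same share was 12.97% with AP20187 and 18.1% with vehicle, again with overlap. The part of the neuronal markers in the P2rx3 and P2rx2 results was not tested.

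Beside the rise of P2rx1, 6 of 8 genes of neutrophils and their precursors passed as higher in DMM mice (median log2 fold change 3.01) and 7 of 8 in naive mice (median 3.65). Of all genes 11.3% passed as higher in DMM mice and 8.61% in naive mice, and 12.4% and 2.57% passed as lower. Against vehicle samples 63 and 64, 3 of 8 passed. Of the platelet genes, 1 of 5 passed as higher in DMM mice and 0 of 5 in naive mice in edgeR, with medians of 1.38 and 1.51. The platelet count was 5 in both kinds of mice in limma voom, where 21.9% of all genes in DMM mice and 13.7% in naive mice passed as higher, and in DMM mice it was 4 without vehicle sample 64 and 0 against samples 63 and 64. The platelet sum was 63.4 to 235 FPKM with AP20187 and 9.67 to 154 FPKM with vehicle in DMM mice, the highest vehicle value being that of sample 64. Of the smooth muscle genes 0 of 4 passed in either kind of mice in edgeR, and in limma voom 2 passed as higher in DMM mice and 1 in naive mice. P2rx1 was 0.025% of the neutrophil sum with AP20187 and 0.049% with vehicle in DMM mice, and 0.021% and 0.049% in naive mice, with overlap in both. Its ratio to the other sums went the other way. It was 3.93% of the platelet sum with AP20187 and 2.35% with vehicle in DMM mice, with overlap, and 3.52% and 1.79% in naive mice, without overlap. Against the smooth muscle sum it was 10.98% with AP20187 and 2.92% with vehicle in DMM mice, without overlap, and 5.57% and 1.71% in naive mice, with overlap. Genes of B cells and red cells were also counted. Of the B lineage genes 4 of 5 passed as lower in DMM mice (median -2.93) and 3 of 5 in naive mice (median -2.55), the latter 1 of 5 without naive AP20187 sample 1 or 3. The count in DMM mice was 3 against vehicle samples 32 to 34 and 3 against samples 63 and 64. Of the erythroid genes 2 of 4 passed as lower in DMM mice (median -1.70), a count that ran from 0 to 4 without 1 library and was 0 against samples 32 to 34 and 4 against samples 63 and 64, and 0 of 4 in naive mice (median -0.86). The part of these cell types in the P2rx1 result was not tested.

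Beside P2rx4 and P2rx7, 0 of 10 macrophage markers passed as lower, while 1 of 10 passed as higher in DMM mice and 3 of 10 in naive mice, with medians of 0.95 and 1.38. The higher count in DMM mice was near the 11.3% of all genes that passed as higher there, and the share over all genes in naive mice was 8.61%. Single markers differed in sign in DMM mice, where Cx3cr1, a chemokine receptor of macrophages, was at -0.64 on the log2 scale without passing (SE 0.508, adjusted p = 0.389, edgeR). The counts of higher markers depended on single libraries and on the fit. In DMM mice 6 passed without vehicle sample 64 and 0 to 3 without any other library. In naive mice 7 passed without vehicle sample 3 and 0 to 4 without any other. Over the alternative fits the count ran from 0 to 8 in DMM mice and from 1 to 7 in naive mice. The share of all genes that passed as higher was at most 21.9% and 13.7% in these fits. Against vehicle samples 32 to 34, 7 of 10 passed as higher, and against samples 63 and 64, 0 did, while the share of all genes that passed as higher went from 17.5% to 2.71%. The macrophage sum was 114 to 582 FPKM with AP20187 and 71.4 to 339 FPKM with vehicle in DMM mice, and 207 to 364 against 40.5 to 220 FPKM in naive mice. P2rx4 was 1.47% of this sum with AP20187 and 5.88% with vehicle in naive mice, and P2rx7 was 0.96% and 3.39%, both without overlap. In DMM mice P2rx4 was 1.62% with AP20187 and 4.17% with vehicle, and P2rx7 was 1.02% and 2.92%, both with overlap. Of the summed FPKM of the satellite glia genes, P2rx7 was 0.72% with AP20187 and 0.95% with vehicle in DMM mice. In naive mice that share was 0.78% and 0.96%, with overlap in both kinds of mice. Of the myelinating Schwann cell genes 2 of 4 passed as lower in DMM mice and 0 of 4 in naive mice, and of the satellite glia genes 1 of 5 in each, beside 12.4% of all genes as lower in DMM mice and 2.57% in naive mice. The Schwann cell count in DMM mice ran from 0 to 4 without 1 library, and was 3 in limma voom, 1 against samples 32 to 34 and 0 against samples 63 and 64. The part of these cells in the P2rx4 and P2rx7 values was not tested. No gene of the neuronal, macrophage, neutrophil, platelet or glial lists was at 0 counts in any library.

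**Figure D4:**
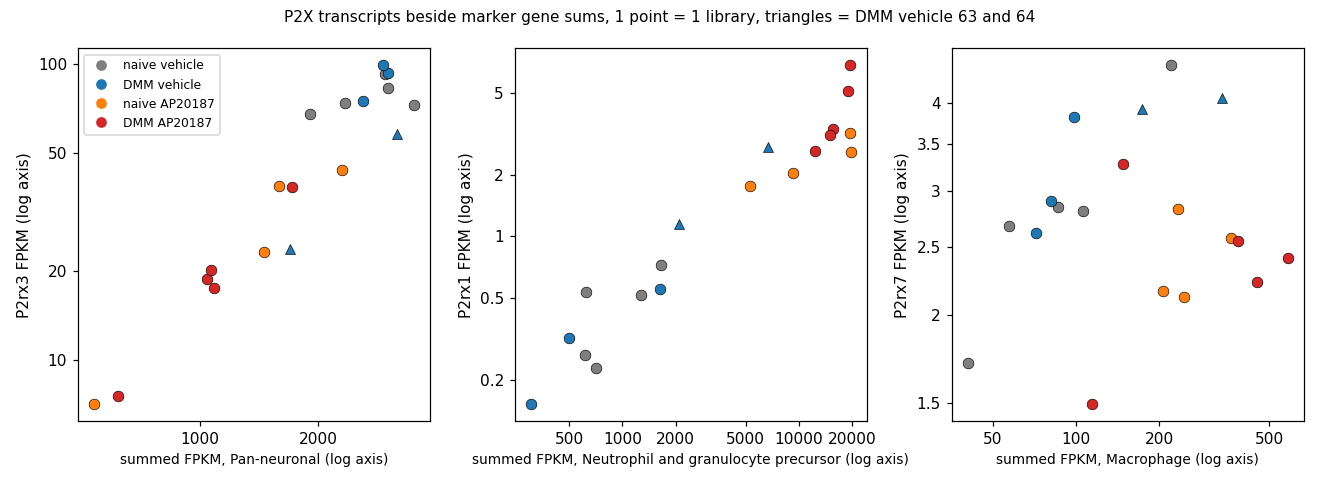
FPKM of P2rx3, P2rx1 and P2rx7 against the summed FPKM of the pan-neuronal, the neutrophil and the macrophage lists, both on log axes, with 1 point per library and triangles for DMM vehicle samples 63 and 64. P2rx3 is low where the pan-neuronal sum is low, P2rx1 is high where the neutrophil sum is high, and P2rx7 shows no such arrangement with the macrophage sum.

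Other genes of ATP and adenosine signalling showed calls in both directions, given here as log2 fold changes of AP20187 against vehicle from edgeR. These counts are read beside the shares of all genes that passed, 23.8% in DMM mice and 11.2% in naive mice. The median log2 fold changes in DMM and naive mice were 0.52 and 0.36 for the P2Y receptors, -0.50 and -0.15 for the adenosine receptors, -0.33 and -0.18 for ectonucleotidases and adenosine turnover, -0.87 and -0.32 for those of ATP release and 0.67 and 1.01 for the inflammasome genes. Among the metabotropic P2Y receptors for nucleotides, 1 of 7 tested passed in each kind of mice: P2ry13, a receptor for ADP on myeloid cells, rose with AP20187 by a log2 fold change of 2.81 in DMM mice (SE 0.527, adjusted p = 0.00168) and 2.37 in naive mice (SE 0.535, adjusted p = 0.00926). The count of P2Y receptors that passed as higher was 3 without DMM vehicle sample 64 or without naive vehicle sample 3, and 1 without any other library. Over the alternative fits it ran from 0 to 4 in DMM mice and from 1 to 3 in naive mice. The count of those that passed as lower was 0 to 2 over these fits and 0 to 1 without 1 library, in both kinds of mice. P2ry13 was at 20.5 ± 7.06 CPM (SD, n = 5) with AP20187 and 2.92 ± 2.17 CPM (SD, n = 5) with vehicle in DMM mice. P2ry1, an ADP receptor, differed by -0.77 in DMM mice (adjusted p = 0.0601) and -0.85 in naive mice (adjusted p = 0.0833).

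Of the 4 adenosine receptors, Adora3 rose in both kinds of mice, by 2.98 in DMM mice (adjusted p = 0.00693) and 3.28 in naive mice (adjusted p = 0.0089), from a vehicle level under 1 CPM on average. Adora1, the inhibitory adenosine receptor of sensory neurons, was lower in DMM mice (-1.46, SE 0.409, adjusted p = 0.0174; 0.0581 without vehicle sample 33) and differed by -0.76 in naive mice (adjusted p = 0.249). The 2 other adenosine receptors did not pass.

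Of the 9 tested genes of ectonucleotidases and adenosine turnover, 2 passed as higher in both kinds of mice. Entpd1, which encodes the ectonucleotidase CD39, rose by 1.35 in DMM mice (adjusted p = 0.00627) and 1.66 in naive mice (adjusted p = 0.00419), and Ada, adenosine deaminase, rose by 3.18 (adjusted p = 2.41e-05) and 2.64 (adjusted p = 0.000186). Acp3, the acid phosphatase of non-peptidergic nociceptors that makes adenosine from AMP, fell by 1.53 on the log2 scale in DMM mice (adjusted p = 0.0148) and differed by -1.09 in naive mice (adjusted p = 0.112), where it passed in DESeq2 (0.049), both limma fits (0.0341 and 0.0287) and with the replicate block (0.0335).

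Of 5 genes of ATP release, Slc17a9, which encodes the vesicular nucleotide transporter, rose by 3.45 in DMM mice (adjusted p = 0.000664) and 3.02 in naive mice (adjusted p = 0.00321). Panx1, the pannexin channel that releases ATP, was lower at -1.22 in DMM mice (adjusted p = 0.0026) and -0.83 in naive mice (adjusted p = 0.0469), where the call was lost in 7 of the 9 fits without 1 library. Lrrc8a, a subunit of the volume-regulated anion channel, was lower in DMM mice (-0.87, adjusted p = 0.0369), a call that was lost in 7 of the 10 fits without 1 library. Of 6 inflammasome genes downstream of P2X7, Pycard, Casp1 and Gsdmd passed as higher in both kinds of mice. Without 1 library the count of higher genes was 2 to 3 in DMM mice and 0 to 3 in naive mice. Over the alternative fits it was 0 to 3 and 1 to 3. In DMM mice Pycard was at 1.94 (adjusted p = 0.0122), Casp1 at 1.03 (adjusted p = 0.0133) and Gsdmd at 1.54 (adjusted p = 0.0212). The call of Gsdmd was lost without AP20187 sample 58 (adjusted p = 0.0556) or vehicle sample 33 (0.056) or 34 (0.0526). In naive mice they were at 2.20 (adjusted p = 0.0139), 0.97 (adjusted p = 0.0369) and 1.60 (adjusted p = 0.0356), and leaving out 1 library gave adjusted p up to 0.0522, 0.138 and 0.118. Il1b, the cytokine released after P2X7 opens, differed by -1.58 in DMM mice (SE 0.663, adjusted p = 0.0889) and by 1.05 in naive mice (SE 0.684, adjusted p = 0.314). In DMM mice 0 of the 6 inflammasome genes passed as lower with all libraries in edgeR. That count was 0 to 2 over the alternative fits and 0 to 1 without 1 library, and in naive mice it stayed at 0.

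Against vehicle samples 63 and 64 alone, Ada, Slc17a9 and Adora3 kept their calls in DMM mice, with adjusted p of 0.00629, 0.0213 and 0.0412. The calls of the other 9 named genes of these lists were lost there: P2ry13 (2.26, adjusted p = 0.0723), Panx1 (-0.95, 0.0828), Entpd1 (0.88, 0.218), Pycard (1.16, 0.228), Casp1 (0.63, 0.345), Gsdmd (0.73, 0.437), Acp3 (-0.53, 0.582), Adora1 (-0.30, 0.774) and Lrrc8a (-0.16, 0.853). Against samples 32 to 34 all 12 passed.

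The genes whose pattern was most like that of each member were found by Pearson r of log2 CPM deviations from group means over 19 libraries and 14589 genes, as a description. These values share libraries and depth. For P2rx3 they were Rgs4 (r = 0.982), Snapc1 and Pnma2 (0.980 each), Clgn (0.979) and Cdkl2 (0.978). For P2rx1 they were Snx20 (0.970), S1pr4 (0.964), Dennd1c (0.963), Man2b1 and Ucp2 (0.962 each). The closest gene was Hapln1 for P2rx6 (0.970), Nopchap1 for P2rx5 (0.946), Tsr2 for P2rx2 (0.860), Ndrg1 for P2rx7 (0.845, followed by Emp2 at 0.843 and Ncmap, a gene of myelinating Schwann cells, at 0.838) and Ergic2 for P2rx4 (0.783).

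Between members, deviations of P2rx5 and P2rx6 were the most alike (r = 0.910), and P2rx3 went with P2rx5 (0.790) and P2rx6 (0.781). P2rx2 was less like P2rx3 (0.372). P2rx1 ran opposite to P2rx3 (-0.708). P2rx4 and P2rx7 had r of 0.324 with each other and of -0.141 and -0.096 with P2rx3.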

How the data were processed

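Stranded poly(A) RNA libraries of pooled ganglia were sequenced, per the labels' protocols. Cutadapt, HISAT2, StringTie and the build GRCm39 are named in the submitters' processing notes without versions or roles. The counting program and its strand setting are not given in the sources used here, so reads of P2rx3 and of Ssrp1 on the other strand may not be separated. Whole-number counts as deposited by the authors were used for all tests, and the authors' FPKM values (fragments scaled to transcript length and library depth) from the same deposited table for levels between genes, ratios and sums. A larger deposited count table held equal counts for all 36682 genes, and its 6448 entries without a name were not used. No column was left unmapped.

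The two-sided quasi-likelihood F test of edgeR 4.0.16 in R 4.3.3 was run with TMM normalization and filterByExpr (minimum count 10), in 1 fit of 4 groups over 19 libraries with 15 residual degrees of freedom and 5 contrasts. Benjamini-Hochberg adjustment ran over all 22778 genes of a contrast, with a threshold of 0.05. Intervals are 95% intervals of the fit and cover the spread between libraries. Depth was 60984830 to 74691396 counts per library.

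Alternatives were DESeq2 1.42.0, RLE factors, library size only, no count filter, limma 3.58.1 on log2(FPKM + 1) for genes with a mean FPKM of at least 0.1, limma voom with sample weights, fits of 2 groups, vehicle samples 32 to 34 or 63 and 64 alone, a replicate block and leaving out each library. In counts simulated for 22778 genes, 100 genes were changed 2-fold and 100 were changed 4-fold. Of these, 25% and 61% were called in the DMM contrast, and 22% and 58% in the naive contrast. Far more genes passed in the data themselves, so these rates do not give the power there.

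All 7 P2rx genes are named. From 5 pathway lists, genes with the smallest adjusted p were eligible, up to 4 per list and contrast, and some of them are printed. For likeness, the 5 genes of highest r among those with a mean of at least 1 CPM were taken, from log2 CPM with a prior count of 2. Promoter windows are RefSeq sequences of GRCm38.p6, found for 4 of 7 genes. The members and the 18 lists were chosen with earlier results of these data known.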

Additional observations from a re-analysis of the deposited data

How the results depend on the processing

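Of the values of the 7 genes, no value that passed turned its sign, but P2rx1 between DMM and naive vehicle mice ran from -0.425 with samples 32 to 34 (adjusted p = 1) to 2.06 with samples 63 and 64 (adjusted p = 0.0485). The 3 P2X genes called with AP20187 in DMM mice became 5 in limma voom and against vehicle samples 32 to 34 (with P2rx5 and P2rx6 in both), 0 against samples 63 and 64, and 2 to 5 without 1 library. Of all genes 23.8% passed in the edgeR fit of 4 groups, 46.9% in voom, 36.3% with samples 32 to 34 and 4.73% with samples 63 and 64. P2rx2 missed the threshold with no count filter (adjusted p = 0.0542) and in the 2-group fit (0.0766). The 1 gene called in naive mice became 2 in DESeq2 (with P2rx3) and 3 in both limma fits (with P2rx3 and P2rx2). Between DMM and naive mice 1 passed with vehicle samples 63 and 64, and 1 with AP20187 in limma voom. The cause of these changes was not tested.

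For DMM against naive with vehicle, P2rx4 was at -0.002 in DESeq2 and with RLE factors, -0.034 in voom, -0.005 in the 2-group fit and -0.013 with samples 32 to 34. With samples 32 to 34 P2rx2 was at 0.061, P2rx3 at 0.19, P2rx5 at 0.124 and P2rx6 at 0.09. With AP20187, P2rx4 was at 0.064 in limma on FPKM, and P2rx7 in naive mice was at 0.057 in voom. The interaction turned for P2rx1 (0.256 in limma on FPKM, 0.445 in voom, 1.053 with samples 32 to 34), for P2rx4 (0.026 in limma on FPKM) and, with samples 63 and 64, for P2rx3 (0.403), P2rx5 (0.451) and P2rx6 (0.392).

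Without 1 library, DMM against naive with vehicle ran from -0.211 to 0.105 for P2rx2, -0.336 to 0.058 for P2rx3 and -0.044 to 0.072 for P2rx4. With AP20187 P2rx2 ran from -0.566 to 0.135. The interaction ran from -0.708 to 0.372 for P2rx1 and -0.506 to 0.216 for P2rx2, and P2rx7 in naive mice from -0.189 to 0.124.

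Log2 ratios to P2rx3 with samples 63 and 64 differed with AP20187 in DMM mice by 2.19 (P2rx1) and 0.25 (P2rx7), and between DMM and naive vehicle mice by 3.16 (P2rx1), 1.17 (P2rx4) and 1.59 (P2rx7), against -0.66, -0.19 and -0.05 with samples 32 to 34. Without 1 library these last ran from -0.02 to 1.51 for P2rx1 and -0.01 to 0.55 for P2rx4, and P2rx7 with AP20187 from -0.08 to 0.89.

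Counts over all genes ranged from 1156 (samples 63 and 64) to 10676 (voom) around 5410 in DMM mice, from 1793 to 4542 around 2548 in naive mice, from 73 to 2456 around 160 for DMM against naive with AP20187, from 13 to 224 around 26 for the interaction, and with vehicle were 0, except 1 in voom and 541 with samples 63 and 64. The replicate block in naive mice called 1 P2X gene and 2310 genes in all. Numbers shared by naive mice had correlations of -0.082 to 0.301, and only number 3 correlated best with itself. The labels do not say whether the numbers pair samples, and so few correlations cannot settle it.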
